A study of Mus musculus with 6 samples.

Results

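The genes described here encode cell-surface receptors of the extracellular matrix: the integrin chains Itgb1, Itgb5 and Itga8, the hyaluronan receptor Cd44, and Rpsa, a ribosomal protein that also acts as a laminin receptor. They were chosen by gene symbol, each had 1 probe, and together they made up 5 of the 205 probes with 1 named gene in a table of 223 probes. Expression was measured on arrays in soleus, a slow hindlimb muscle that works against gravity, from C57Bl/6 mice after 1 day of reloading. All 6 samples carried the same wild-type title with replicate numbers 1 to 6, and 3 micrograms of total RNA, isolated from cryosections, went onto each array. The titles also carry the abbreviation HUR, which the labels do not spell out. No second condition was analysed here, so the values give the level of each receptor gene on each array and its spread between samples. The labels do not say that the samples came from separate animals, so this spread and every p-value below may include technical differences.

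Integrins are pairs of 1 alpha and 1 beta chain that tie the matrix outside the cell to the cytoskeleton inside it. In muscle, integrins with the beta1 chain sit at costameres and myotendinous junctions and bind the laminin of the basement membrane around each fibre. The alpha8 chain pairs with beta1 and binds fibronectin, tenascin-C and other ligands that carry an RGD motif, and beta5 pairs with alphaV and binds vitronectin. CD44 is carried by many cells, among them leukocytes, fibroblasts and muscle precursors. Because the whole muscle was measured, fewer cells of a type and less RNA per cell cannot be told apart in any value below.

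The arrays differed widely in overall brightness. Summed over all probes, replicate 1 held a deposited intensity of 165.3 and replicate 6 of 13.8, while replicates 2 to 5 held 35.2 to 41.3, an 11.9-fold difference between the ends. The intensities go below 0, and how far an array went below 0 at most was taken as its noise bound, 0.0144 on replicate 1 and 0.0011 to 0.0028 on the others. Values called centred are log2 intensities with the median of the 175 probes above 0 on all 6 arrays set to 0 on each array. Muscle fibre markers (Myh7, Myh2, Des, Mb and Ttn) were above the noise bound on all 6 arrays for 5 of 5 genes on the array, as were 5 of 5 endothelial markers. Of the listed white blood cell markers only Il1b and Il6 had probes, and neither exceeded the noise bound on any array. These interleukin genes alone cannot show whether white blood cells were present. The precision of every mean is limited by the 6 arrays.

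All 5 receptor genes were above 0 on all 6 arrays, where 78.5% of all probes were. In 4 of the 5 the value also exceeded the noise bound on every array, where 58.3% of all probes did. Itga8 was the exception, with replicate 1 under its bound.

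Itgb1, the beta1 chain shared by most laminin-, collagen- and fibronectin-binding integrins, was the brightest of the 5 probes, which is not read as a higher transcript level because probes differ in sensitivity. Its deposited intensity was 1.4697 on replicate 1, 0.1927 on replicate 2, 0.2453 on replicate 3, 0.1647 on replicate 4, 0.1169 on replicate 5 and 0.0583 on replicate 6. These values were 41.8 to 118 times the noise bound of their array, so background noise of that size is small beside them. On the centred scale Itgb1 averaged 3.48 ± 0.74 (SD, n = 6), with replicate 1 highest at 4.51 and replicate 6 lowest at 2.56. That is a 3.86-fold range, and 3.75-fold remained when noise of the size of the bound was allowed for in both arrays. The SD ranked 97 from the lowest among 162 named genes, a little above the median SD of 0.64.

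Itgb5, the beta5 chain of the vitronectin receptor, had the most even centred level of the 162 genes. It was deposited as 0.0551, 0.0129, 0.0144, 0.0169, 0.0138 and 0.0099 on replicates 1 to 6, which is 3.83 to 12.1 times the noise bound. The centred values lay between -0.29 on replicate 5 and 0.052 on replicate 4, with a mean of -0.13 ± 0.14 (SD, n = 6) and a 1.27-fold range. Noise of the size of the bound would cover this whole range. On replicate 6 the probe was itself the median probe, with a centred value of 0. The evenness belongs to the centred scale: the deposited values ranged 5.57-fold and those scaled to 28S ribosomal RNA 2.95-fold.

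Rpsa, which encodes a protein of the small ribosomal subunit, was nearly as even. Its deposited values were 0.0382, 0.0107, 0.0085, 0.0083, 0.0109 and 0.0052 on replicates 1 to 6, or 2.65 to 5.93 times the noise bound. Centred, it stood at -0.77 ± 0.19 (SD, n = 6), with replicate 2 highest at -0.49 and replicate 4 lowest at -0.97. Its SD ranked 4 of 162 from the lowest and its range was 1.40-fold, again within the reach of noise of that size. The mouse gene table lists 12 Rpsa pseudogenes, and hybridisation of their transcripts cannot be told apart from that of Rpsa with this probe.

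Cd44 varied far more between samples. The deposited intensity was 0.2049 on replicate 1, 0.0235 on replicate 2, 0.0194 on replicate 3, 0.0162 on replicate 4, 0.0136 on replicate 5 and 0.0024 on replicate 6. Replicate 6 was 2.18 times its noise bound, the other arrays 4.86 to 14.2 times. Centred, Cd44 averaged 0.046 ± 1.23 (SD, n = 6) and ran from 1.66 on replicate 1 to -2.04 on replicate 6. This 13.1-fold range left 8.33-fold with noise allowed for in both arrays. It rested on the arrays at the ends: the SD was 0.76 without replicate 6, and 0.42 without replicates 1 and 6, when Cd44 ranked 69 from the lowest. Over all 6 arrays its SD ranked 26 from the highest of 162 genes.

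Itga8, the alpha8 chain, was dim, and its highest values lay in the samples where Itgb1 and Cd44 were lowest. Deposited values were 0.0066 on replicate 1, 0.0058 on replicate 2, 0.003 on replicate 3, 0.0029 on replicate 4, 0.0122 on replicate 5 and 0.0164 on replicate 6. Replicate 1 stood at 0.46 of its noise bound, replicate 3 at 1.15 times, replicate 4 at 2.07 times and replicate 6 at 14.9 times. The centred mean was -1.54 ± 1.48 (SD, n = 6), from -3.29 on replicate 1 to 0.73 on replicate 6, and the SD ranked 7 from the highest of 162 genes. Of the 16.2-fold range, 9.31-fold remained with replicate 1 set to its bound, which made replicate 4 the lowest. Between replicates 6 and 4, 5.86-fold remained with noise allowed for in both arrays. Without replicates 1 and 6 the SD was 0.94, which ranked 146 from the lowest. In deposited units Itga8 was still highest on replicate 6, the dimmest array, which held the lowest deposited value of the other 4 receptor genes.

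**Figure D1:**
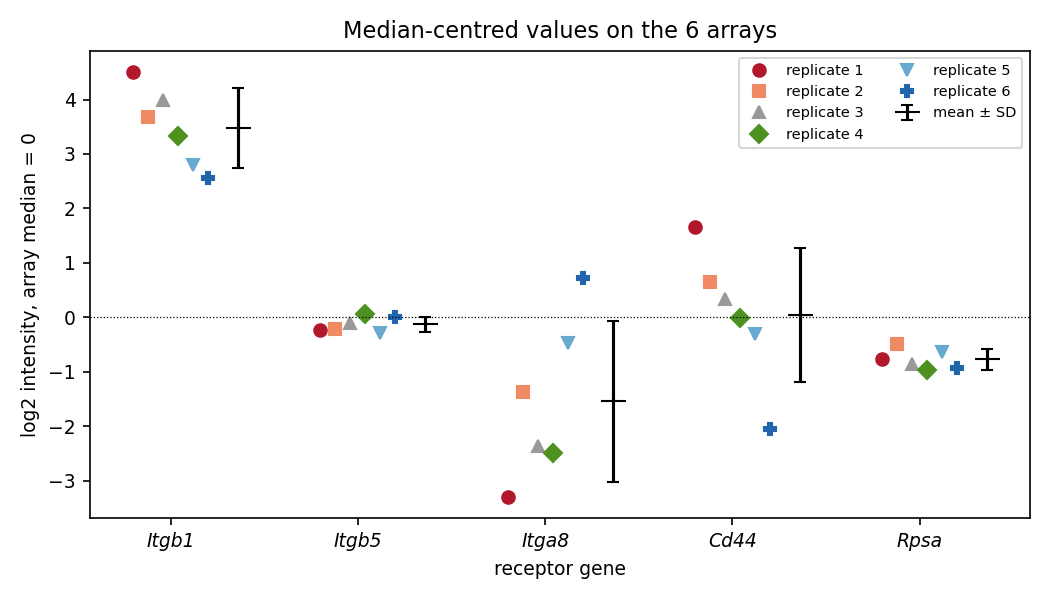
Log2 intensity of the 5 receptor genes with the array median at 0, 1 point per array (replicates 1 to 6), beside the mean and SD over the 6 arrays. Itgb5 and Rpsa form tight groups with SDs of 0.14 and 0.19, while Cd44 and Itga8 spread over 13.1-fold and 16.2-fold with replicates 1 and 6 at opposite ends, Itga8 on replicate 1 being under the noise bound.

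**Figure D2:**
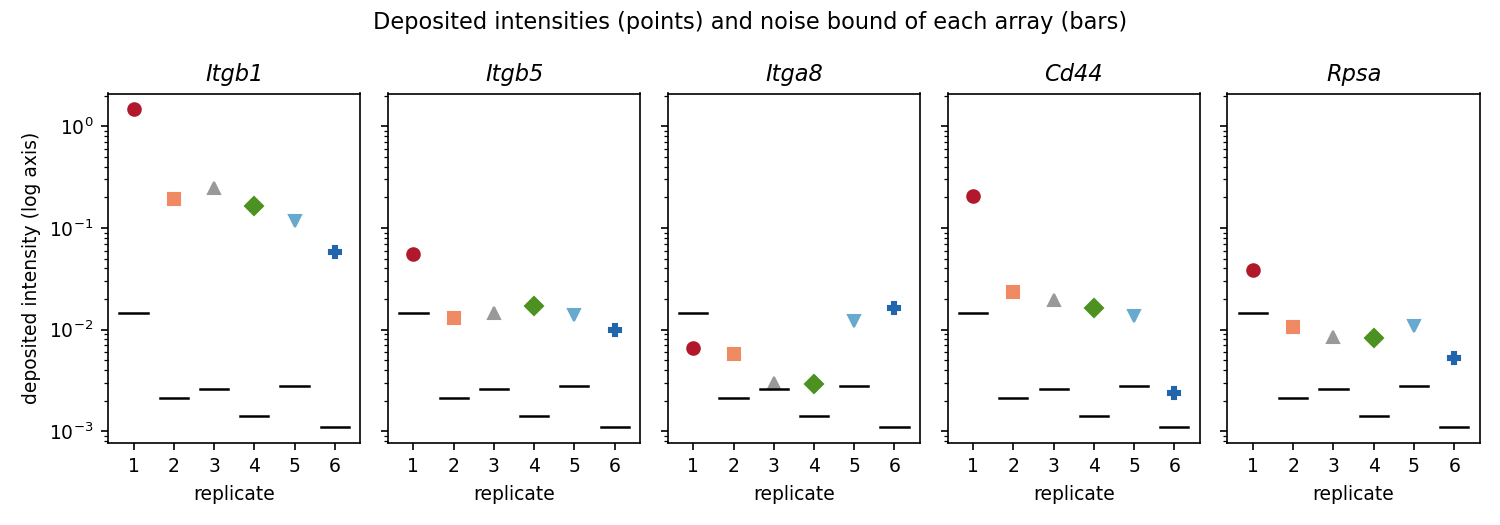
Deposited intensity (log axis) of each receptor gene on replicates 1 to 6, with a bar at the noise bound of the array. Itga8 on replicate 1 (0.0066) lies under the bound of 0.0144, and the other points lie above their bounds.

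Ratios between 2 probes of the same array do not depend on how the arrays are scaled by a single factor, so they were compared across samples. Only the change of such a ratio between arrays is read, and it shows unequal change of the 2 probes and not which of them changed. Rpsa over Itgb5 was the steadiest of the 10 ratios, at 0.69, 0.83, 0.59, 0.49, 0.79 and 0.53 on replicates 1 to 6, a 1.69-fold range with an SD of 0.31 on the log2 scale. Itgb1 over Itgb5, the 2 beta chains, was 26.7 on replicate 1 and 5.89 on replicate 6, with 14.9, 17.0, 9.75 and 8.47 on replicates 2 to 5. The array with the brightest overall signal thus had a ratio 4.53 times that of the dimmest. Cd44 over Itgb5 ranged 15.3-fold, with 3.72 on replicate 1, 0.24 on replicate 6, and 1.82, 1.35, 0.96 and 0.99 on replicates 2 to 5. Itga8 over Itgb5 was highest on replicate 6 at 1.66, with 0.45, 0.21, 0.17 and 0.88 on replicates 2 to 5. On replicate 1, where Itga8 was under the noise bound, it was 0.12 as deposited and at most 0.26 with Itga8 at the bound, which leaves a 9.65-fold range and replicate 4 lowest.

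Itgb1 over Cd44 stayed within 7.17 to 12.6 on replicates 1 to 5 and was 24.3 on replicate 6, a 3.39-fold range in all. Itgb1 over Itga8, the 2 chains of integrin alpha8beta1, was 3.55 on replicate 6 and 102 on replicate 1 with Itga8 set to its bound there, a bounded range of 28.7-fold. Itga8 over Cd44 had the widest bounded range of the 10 ratios, 97.2-fold, with 0.070 at the bound on replicate 1 and 6.83 on replicate 6.

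**Figure D3:**
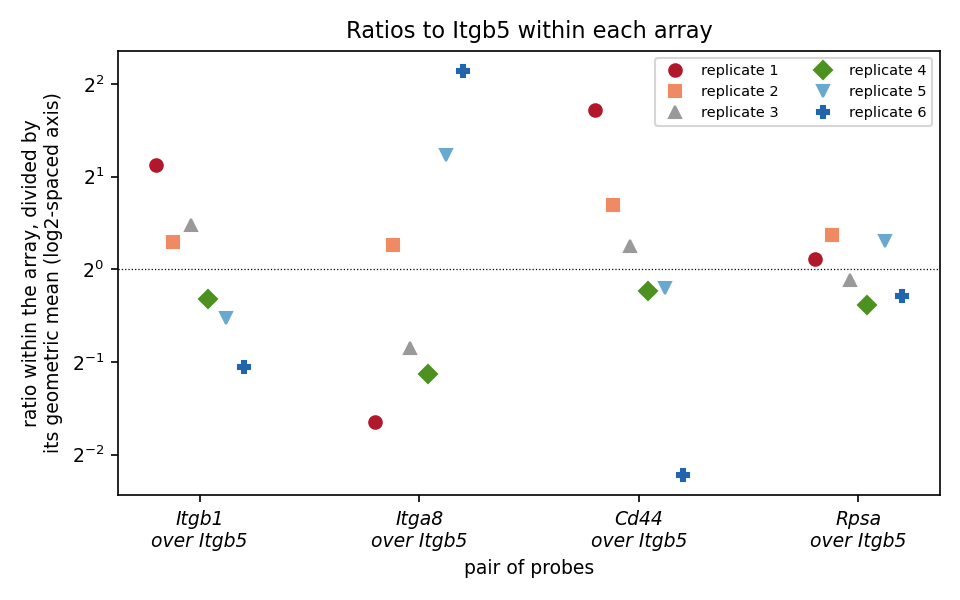
Ratio of each receptor probe to the Itgb5 probe within an array, divided by its geometric mean over the 6 arrays (log2-spaced axis). Rpsa over Itgb5 keeps within a 1.69-fold range, whereas replicates 1 and 6 are at the ends for Itgb1, Itga8 and Cd44, with Itga8 at the reverse ends as deposited; its point for replicate 1 rests on a value under the noise bound.

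The receptor genes were then correlated over the 6 arrays on the centred scale, with exact two-sided permutation tests over the 720 pairings of samples, adjusted by Benjamini and Hochberg over the 10 pairs. The strongest positive relation was that of Itgb1 and Cd44, with Pearson's r = 0.91 (p = 0.00833 by exact permutation, 0.065 after adjustment) and Spearman's rho = 0.94 (p = 0.0167 by exact permutation, 0.17 after adjustment). It was r = 0.84 once replicates 1 and 6 were set aside. Itga8 ran against both on this scale, with its value on replicate 1 under the noise bound. Itgb1 and Itga8 had r = -0.90 (p = 0.0194 by exact permutation, 0.065 after adjustment) and rho = -0.83 (p = 0.0583 by exact permutation, 0.19 after adjustment), and r = -0.69 without replicates 1 and 6. For Itga8 and Cd44, r was -0.88 (p = 0.0181 by exact permutation, 0.065 after adjustment) and rho -0.77 (p = 0.103 by exact permutation, 0.26 after adjustment), but r was -0.34 without replicates 1 and 6, so that relation rests on those samples. Without scaling r was only -0.38 for Itgb1 and Itga8 and -0.40 for Itga8 and Cd44. After quantile normalization these were -0.57 and -0.82, and on the 28S scale -0.79 and -0.83.

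Itgb5 and Rpsa, the even genes, were opposed on this scale with r = -0.85 (p = 0.0417 by exact permutation, 0.10 after adjustment) and rho = -0.83 (p = 0.0583 by exact permutation, 0.19 after adjustment), and r = -0.60 without replicates 4 and 6. Their changes are within the noise bound, and r turned to 0.95 without scaling and to 0.89 on the 28S scale. The other 6 pairs had r between -0.51 and 0.40 (exact permutation p from 0.319 to 0.907). In all, 0 of the 10 pairs passed an adjusted p of 0.05, with 4 under 0.05 unadjusted for r and 1 for rho.

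Promoter sequences are given for Itgb1 and Cd44, the receptor pair with the highest r, and for Itgb5, the even gene. They are from RefSeq on GRCm38.p6, where all 5 genes had 1 entry each, and cover 250 bases before and 50 after the transcript start. Itgb1 is at chr8:128685404-128685703 on the plus strand, Cd44 at chr2:102901616-102901915 on the minus strand and Itgb5 at chr16:33829415-33829714 on the plus strand. Capitals mark the GC box, GGGCGG on either strand.
Itgb1: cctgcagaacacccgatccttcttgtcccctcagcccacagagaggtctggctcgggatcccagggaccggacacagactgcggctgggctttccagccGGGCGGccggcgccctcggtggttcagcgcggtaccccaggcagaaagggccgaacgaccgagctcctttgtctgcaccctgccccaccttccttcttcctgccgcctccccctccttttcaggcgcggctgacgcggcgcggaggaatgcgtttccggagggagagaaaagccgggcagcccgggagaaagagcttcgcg
Cd44: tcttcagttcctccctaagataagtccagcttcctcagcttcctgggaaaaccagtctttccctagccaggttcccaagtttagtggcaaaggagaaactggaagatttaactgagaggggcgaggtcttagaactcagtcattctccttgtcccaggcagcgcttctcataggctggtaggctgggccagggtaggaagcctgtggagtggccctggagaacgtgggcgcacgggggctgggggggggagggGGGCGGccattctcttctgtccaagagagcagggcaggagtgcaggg
Itgb5: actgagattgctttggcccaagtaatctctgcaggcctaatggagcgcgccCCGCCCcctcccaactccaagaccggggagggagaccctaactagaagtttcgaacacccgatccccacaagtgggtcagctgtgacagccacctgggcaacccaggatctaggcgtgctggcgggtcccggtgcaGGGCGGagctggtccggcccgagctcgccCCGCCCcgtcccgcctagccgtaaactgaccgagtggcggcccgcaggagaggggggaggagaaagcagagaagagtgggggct
The GC box occurred 1 time in the Itgb1, Cd44 and Rpsa windows, 3 times in that of Itgb5 and 0 times in that of Itga8, and 35.7% of 32851 mouse promoter windows of this length hold it. The TATA box (TATAAA) and the AP-1 element (TGANTCA), searched on both strands, were in 0 of the 5 windows, against 13.6% and 7.81% of all windows. The CCAAT box (CCAAT, either strand) was in the Rpsa window alone of the 5, and in 37.4% of all. The overall GC content was 67.3% for Itgb1, 58% for Cd44 and 65.7% for Itgb5, with a median of 52.7% over all windows. The motifs do not overlap one another, and a match describes the sequence and is no sign of binding.

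The receptor genes were also set against the overall signal of the arrays, the log2 summed intensity. By Pearson's r, 1 of the 5 genes, Itgb1, passed an adjusted p of 0.05, and by Spearman's rho 0 did. Itgb1 had r = 0.87 with it (exact permutation p = 0.00278, adjusted over the 5 genes p = 0.014) and rho = 0.94 (p = 0.0167 by exact permutation, 0.083 after adjustment). Without replicates 1 and 6 the r was 0.84, but the adjusted p by Pearson's r passed 0.05 in only 1 of the 6 sets of 5 arrays, the one without replicate 4. With 5 arrays there are 120 pairings in place of 720, so the smallest possible p is larger and the call is harder to keep. The call was also lost after quantile normalization (r = 0.65, 0.15 after adjustment of the exact permutation p) and with the array median as the signal (r = 0.76, 0.19 after adjustment). Cd44 had r = 0.92 (p = 0.0417 by exact permutation, 0.074 after adjustment) and rho = 0.89 (p = 0.0333 by exact permutation, 0.083 after adjustment), and r = 0.56 without replicates 1 and 6. For Itga8 the values were r = -0.84 (p = 0.0444 by exact permutation, 0.074 after adjustment), rho = -0.66 (p = 0.175 by exact permutation, 0.29 after adjustment) and, without replicates 1 and 6, r = -0.39. Itgb5 and Rpsa had r = -0.51 and 0.23 (exact permutation p = 0.351 and 0.697, adjusted p = 0.44 and 0.70) and rho = -0.54 and 0.49 (exact permutation p = 0.297 and 0.356, adjusted p = 0.36 for both), with r = 0.023 and -0.073 without replicates 1 and 6. Among the 162 genes Cd44 ranked 5 and Itgb1 14 from the most positive r with the array signal, and the median gene had r = 0.39.

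The muscle fibre markers also differed between the arrays. Summed over Myh7, Myh2, Des, Mb and Ttn, their intensity relative to the array median was 326 on replicate 1, 229, 282, 268 and 154 on replicates 2 to 5, and 133 on replicate 6. Of these 5 genes 3 were highest on replicate 1 and 4 lowest on replicate 6, while Mb was highest on replicate 4, and Ttn was highest on replicate 3 and lowest on replicate 5. Among all 162 genes, 47 were highest on replicate 1 and 76 lowest on replicate 6. Itgb1 relative to the array median was 22.7 on replicate 1, 12.8, 15.9, 10.1 and 6.92 on replicates 2 to 5, and 5.89 on replicate 6. For the 5 endothelial markers (Kdr, Tek, Flt1, Pecam1 and Cdh5) the sum was 7.35 on replicate 1, 8.17, 8.77, 10.8 and 14.3 on replicates 2 to 5, and 10.7 on replicate 6. The fat cell regulator Pparg was at 3.48 times the array median on replicate 6, where Itga8 was highest, and at 0.32 to 0.93 times on the others. The fibroblast marker Pdgfra was 0.37 times the array median on replicate 1 and 0.61 times on replicate 6. On replicates 2 to 5 it was 0.55, 0.34, 0.27 and 0.24 times. Cd44 relative to the array median was 3.17 on replicate 1 and 0.24 on replicate 6. On replicates 2 to 5 Cd44 was 1.57, 1.26, 0.99 and 0.80. Centred Myod1, a factor of muscle precursors, was 1.75 on replicate 1, 2.24, -0.24, -0.76 and 0.26 on replicates 2 to 5, and -1.24 on replicate 6. Myf5, the other listed precursor marker with a probe, was above the noise bound on 1 array only. Pparg and Pdgfra were each the only 1 of 3 listed markers of their cell type with a probe. The part of these cell types, and of the array signal, in the receptor values was not tested.

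Of the matrix ligands on a list of 26 genes, 11 had probes and 10 were above 0 on all arrays, with a median SD of 0.63 beside 0.64 for all 162 genes. Known receptor and ligand pairs, with Cd44 and the protease Mmp14 as the exception, gave 20 relations, with p-values adjusted over the 20. Itgb1 ran with Lamc1, the gamma1 chain found in most laminins, at r = 0.96 (p = 0.00556 by exact permutation, 0.083 after adjustment) and rho = 0.94 (p = 0.0167 by exact permutation, 0.17 after adjustment), and r = 0.88 without replicates 1 and 6. Lamc1 was deposited as 0.6265 on replicate 1, 0.0577, 0.1026, 0.0686 and 0.0501 on replicates 2 to 5, and 0.0169 on replicate 6. Its highest and lowest arrays were those of Itgb1, but 47 of the 162 genes were highest on replicate 1 and 76 lowest on replicate 6.

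Other matrix genes stood in the opposite order to Itgb1. Lama3, a laminin alpha chain best known from skin, had r = -0.94 with it (p = 0.00972 by exact permutation, 0.083 after adjustment) and rho = -0.94 (p = 0.0167 by exact permutation, 0.17 after adjustment), and r = -0.996 without replicates 1 and 6. On replicate 1 its value of 0.007 was under the noise bound, and its highest value was 0.0932 on replicate 5. Lamb2, the laminin beta2 chain enriched at neuromuscular junctions, had r = -0.91 (p = 0.0125 by exact permutation, 0.083 after adjustment) and rho = -0.89 (p = 0.0333 by exact permutation, 0.22 after adjustment), and r = -0.81 without those 2 arrays. Tnc, tenascin-C, gave r = -0.85 (p = 0.0236 by exact permutation, 0.12 after adjustment), rho = -0.77 (p = 0.103 by exact permutation, 0.41 after adjustment) and r = -0.68 without them. For Lamb2 and Tnc the sign depended on the scaling, since r was 0.50 and 0.53 without scaling and 0.080 and 0.090 on the 28S scale. For Lama3 r stayed negative but was weaker, at -0.50 without scaling and -0.61 on the 28S scale. The exact permutation p-values for these were 0.36 and 0.31 after adjustment.

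**Figure D4:**
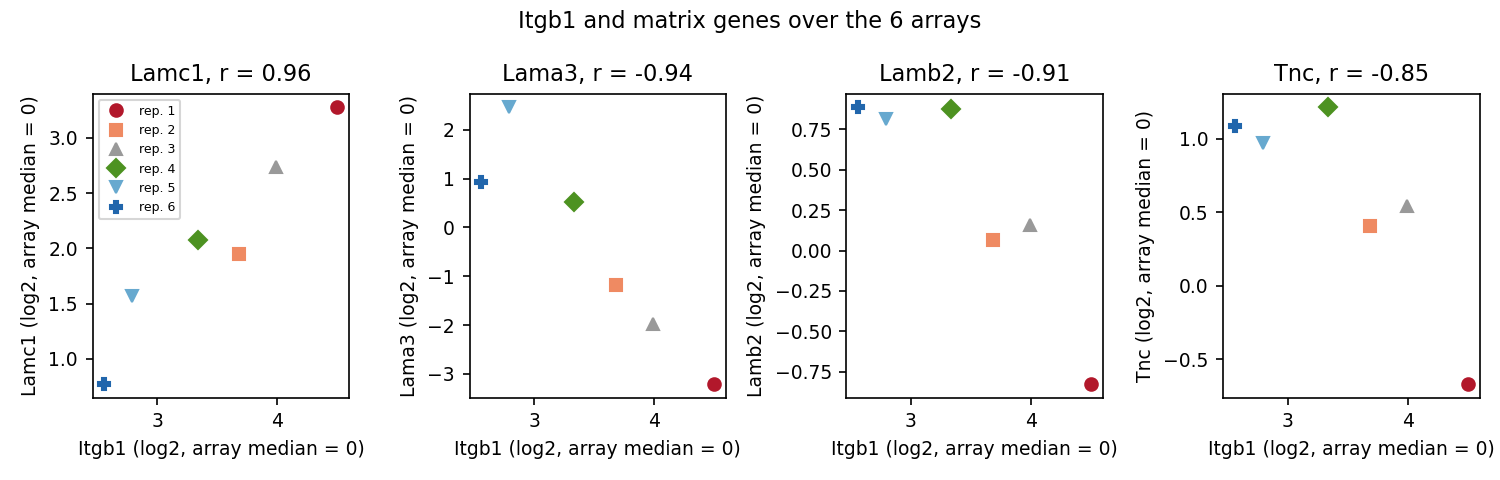
Centred log2 values of Lamc1, Lama3, Lamb2 and Tnc against those of Itgb1, 1 point per array. Lamc1 is high where Itgb1 is high (r = 0.96), and the other genes lie in the opposite direction (r = -0.94, -0.91 and -0.85), with replicate 1 at the right end of each panel.

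The remaining 16 relations had r between -0.68 and 0.61 (exact permutation p from 0.14 to 0.972), among them Itga8 with its ligands Fn1 (r = -0.68) and Tnc (r = 0.61). For those pairs rho was -0.49 and 0.37 (exact permutation p = 0.14 and 0.199 for r, 0.356 and 0.497 for rho, adjusted p = 0.56 and 0.57 for r, 0.71 for both by rho), and r without replicates 1 and 6 was -0.64 and -0.070. Rpsa had r between -0.33 and 0.13 with the 7 laminin chains above 0 on all arrays, of which Lamb1 exceeded the noise bound on 0. Without replicates 2 and 5 some of these values moved far, to r = -0.96 for Lama2, -0.94 for Lama3, -0.98 for Lamb2 and 0.74 for Lamc1. For Lamb1 r went from 0.10 to -0.54. It hardly moved for Lama4 (0.13 to 0.11) and Lama5 (-0.31 to -0.32). Of the 20 relations 0 passed an adjusted p of 0.05, with 4 under 0.05 unadjusted for r and 3 for rho. These p-values miss the threshold and do not show that receptors and ligands were unrelated.

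Other integrin chains on the array were dim. Itgav, the alphaV chain that pairs with beta5 and beta1, was above 0 on 6 arrays and above the noise bound on 3, with a centred mean of -2.58 ± 0.44 (SD, n = 6) and a 2.22-fold range. Itga2, the collagen-binding alpha2 chain, was above 0 on 2 arrays and above the bound on 0, with values from -0.0086 to 0.0008. Vcam1, a ligand of integrins on leukocytes, had a bounded range of 3.40-fold, with replicate 2 under the noise bound and set to it. Des and Cdh5, the intermediate filament of muscle and the cadherin of endothelium, had SDs of 0.49 and 0.38. The 4 genes of this list of 19 adhesion partners that were above 0 on all arrays had a median SD of 0.46.

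Among the basement membrane and matrix genes, Tnxb, tenascin-X, varied least (SD 0.26), and Lama4 and Lama5, the alpha chains of vessels, had SDs of 0.36 each. Lama2, the alpha chain of the muscle basement membrane, had a centred SD of 0.49, with 5 of 6 arrays above the bound. Lamb1 was above 0 on 6 arrays but above the bound on 0, and Lamb3 was above 0 on 4 arrays. Fn1, fibronectin, had 2 probes: one had a centred mean of 2.28 ± 0.59 (SD, n = 6) and was highest on replicate 3, and the other was above the noise bound on 3 arrays.

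Of 9 proteases and inhibitors that cut or guard these matrix proteins, 7 were above 0 on all arrays, with a median SD of 0.56. Mmp14, a membrane protease that cleaves CD44, stood at -1.02 ± 0.56 (SD, n = 6) and had, with Cd44, r = -0.15 and rho = -0.37 (exact permutation p = 0.772 and 0.497, adjusted p = 0.97 and 0.71) and r = -0.60 without replicates 1 and 6. Mmp9, which docks on CD44, and Mmp3 were above 0 on 1 array each and above the noise bound on 0. Mmp2 was highest on replicate 6 and under the bound on replicate 1, as Itga8 was, with a bounded range of 5.12-fold. The inhibitor Timp3 ranged 4.50-fold and was highest on replicate 1 and lowest on replicate 6, as Itgb1 was. Timp2 (SD 0.54) and Timp1 (SD 0.44) were lowest on replicate 6 too. Plau, urokinase, had an SD of 0.42, and its receptor gene Plaur was above the bound on 4 arrays with a bounded range of 3.68-fold.

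Genes with the profile most like that of each receptor were found by the root mean square difference of centred values, each gene's own mean removed, over 6 arrays and 161 other genes. Nearest to Itgb1 were the fatty acid oxidation enzyme Acadl (0.11 log2 units), the AP-1 subunit Jund (0.15) and the myotonin kinase Dmpk (0.17), against 0.69 for the median gene. Cd44 was followed most closely by Adam2 (0.16), the receptor chain Csf2ra (0.18) and the cell cycle inhibitor Cdkn1a (0.25), where the median gene differed by 1.07. On replicate 6 these neighbours were at 0.0004, 0.0008 and 0.0011, none above the noise bound of 0.0011, so their distances to Cd44 and their order are uncertain. The profile nearest to that of Itga8 was that of Cdk4, a cell cycle kinase (0.30), with the mitochondrial factor Tfam (0.50, above the bound on 3 arrays) and the ephrin Efnb1 (0.55) next and 1.62 for the median gene. Itgb5 lay next to the VEGF receptor Kdr (0.15), Jun (0.17) and Tgfb1 (0.17), and Rpsa next to Fabp3 (0.18), Cd36 (0.22) and Pdgfrb (0.23), all genes of small spread. Small spread alone can place such genes near, without a shared order of the arrays. With Itgb5, r was 0.53 for Kdr, 0.20 for Jun and 0.60 for Tgfb1. With Rpsa, it was 0.67 for Fabp3, 0.69 for Cd36 and -0.05 for Pdgfrb. After quantile normalization 2 of the 3 neighbours were shared for Itgb1, Itga8 and Cd44, and 1 of the 3 for Itgb5 and Rpsa. Those lost were Acadl for Itgb1 (then at place 7), Tfam for Itga8 (12) and Cdkn1a for Cd44 (6). For Itgb5 they were Jun (4) and Tgfb1 (7), and for Rpsa Cd36 (18) and Pdgfrb (7).

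The spread of the 5 genes was set beside that of all genes under 6 scalings. Itgb5 and Rpsa lay below the median gene under all 6, with SDs of 0.14 to 0.87 for Itgb5 and 0.13 to 0.97 for Rpsa. Cd44 lay above it under all 6, with SDs of 1.02 to 2.05. Itgb1 was above the median gene under 5 scalings, with 0.74 against 0.64 for the median gene after centring, and below it after quantile normalization (0.59 against 0.62). Itga8 was above the median gene after centring (1.48 against 0.64 for the median gene) and after quantile normalization (1.41 against 0.62), below it without scaling (1.02 against 1.15), and level with it on the 28S scale (1.01 against 1.00). The highest array of Cd44 was replicate 1 under all 6 scalings, and so was that of Itgb1, where it tied with replicate 2 after quantile normalization.

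**Figure D5:**
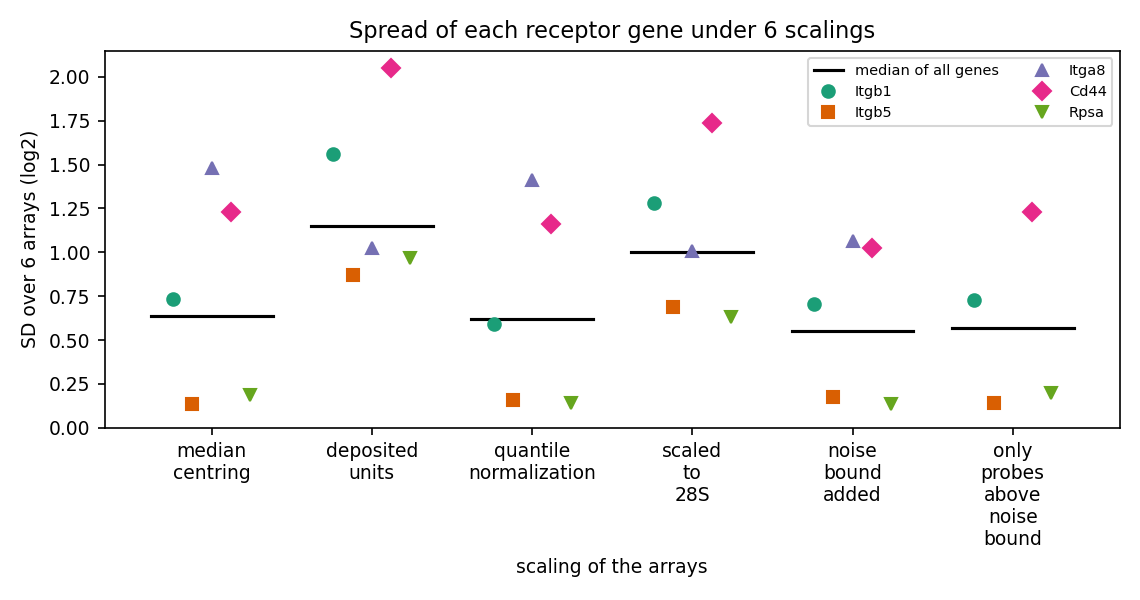
SD over the 6 arrays (log2) of each receptor gene under 6 scalings, with a bar at the median of all genes kept under that scaling. Itgb5 and Rpsa lie under the bar and Cd44 above it in every column, while Itgb1 and Itga8 change sides and Itga8 has no value where only probes above the noise bound were kept.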

How the data were processed

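The series table gives 1 intensity per probe and array for 6 samples of 1 group. The authors deposited these intensities on a linear scale, already lowered by some background, since every array goes below 0. The scanner, array type, background method and normalization are not given in the sources used here. Gene names come from the annotation of the array platform (205 of 223 with 1 gene), and the gene identifiers of 5 of 5 receptor genes matched the GRCm38.p6 table. The annotation ties probes to accessions only, so the places of the probes within their genes are not given.

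Intensities of the 175 probes above 0 on all arrays were taken as log2, with no pseudocount, and centred on the array median. A gene with 2 probes was represented by the brighter one, which left 162 genes. Correlations used all 720 pairings of the 6 arrays, the smallest p being 0.00139, and were tested on simulated data. Alternatives were deposited units, quantile normalization, scaling to 28S, adding the noise bound, keeping only probes above it, and leaving out replicates. The genes named are the 5 receptors, the genes of 3 fixed lists (ligands, proteases and inhibitors, adhesion partners) with a probe, the 3 nearest profiles per receptor, and cell type markers. Relations given singly with p-values are those at p under 0.05, the 5 with the array signal, and 3 others chosen after their values were seen. For Rpsa and the laminin chains only r is given. The receptors and lists were chosen with earlier results of these data known. Python 3.11.15, numpy 2.4.6, pandas 2.3.3 and matplotlib 3.10.9 were used.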

Additional observations from a re-analysis of the deposited data

Results flagged for a closer look

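Of 52 groups of 6 values, 3 had an end value set off from its neighbour by more than Dixon's critical share of the range, where chance gives about 1 in 20 sets, or 2.6. The summed intensity was 165.3 on replicate 1, with 41.3 next, a gap of 0.82 of the range. It was taken in deposited units, unlike the other sets, which were log2 values or log2 ratios. Whether it would be flagged on the log2 scale was not tested. Lama4 was lowest on replicate 6 with a centred value of -0.87, against -0.18 for the next array (gap 0.64). Mmp2 was highest on replicate 6 at 0.17, with -2.06 next (gap 0.71), and was under the noise bound on replicate 1. For the 5 receptor genes and the 10 ratios between them 0 sets did so.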

How the results depend on the processing

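No paired analysis was possible because the samples form a single group. Of 93 alternative values of the main results, 74 were counted as kept and 19 were not. An SD was counted as kept if it changed by less than its own size after centring, so no fall could count against it. The fall of Cd44 from 1.23 to 0.42 without replicates 1 and 6 was thus counted as kept. A count of relations was kept if it was unchanged. The tally therefore says little about how stable the spreads are. In deposited units the SDs were 1.56 for Itgb1, 0.87 for Itgb5 and 0.97 for Rpsa, and on the 28S scale 0.69 for Itgb5 and 0.63 for Rpsa. The number of receptor pairs past an adjusted p of 0.05 was 1 in deposited units, 5 after scaling to 28S and 1 among probes all above the bound, against 0 after centring. For receptors and matrix genes it was 2 without scaling and 3 on the 28S scale. For receptors and the array signal it was 4 in deposited units, 3 after scaling to 28S, 0 after quantile normalization and 0 with the array median as the signal, an alternative chosen after seeing the data, against 1 after centring. Without scaling, all genes of an array share its overall brightness, and the 28S probe carries only 2 decimals on all 6 arrays. Itgb5 and Rpsa turned to r = 0.95 without scaling and 0.89 on the 28S scale, Itgb1 and Lamb2 to 0.50 and 0.080, Itgb1 and Tnc to 0.53 and 0.090, and Itgb5 and the array signal to 0.95 and 0.66. Itgb1 and Cd44 kept a positive r under 6 scalings (0.80 to 0.97, adjusted p from 0.021 to 0.12), as did Itgb1 and Lamc1 (0.77 to 0.99, adjusted p from 0.028 to 0.21).

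Leaving out 1 replicate at a time gave SDs of 0.60 to 0.82 for Itgb1, 0.12 to 0.15 for Itgb5, 1.09 to 1.65 for Itga8, 0.76 to 1.37 for Cd44 and 0.14 to 0.21 for Rpsa. It left 0 pairs and 0 relations with matrix genes past the threshold, and 0 to 1 with the array signal. With 5 arrays there are only 120 pairings. A lone relation could then not pass after adjustment over the 10 pairs or the 20 relations, whatever its r. The counts of 0 were thus nearly fixed beforehand and are no sign of stability. For Rpsa and the array signal r ran from -0.059 to 0.41. Without replicates 1 and 6 together, also chosen after seeing the data, the SDs were 0.52 for Itgb1, 0.15 for Itgb5, 0.94 for Itga8, 0.42 for Cd44 and 0.22 for Rpsa. Itga8 has no value among probes above the noise bound. The cause of these shifts was not tested. Signal over background limits Itga8 on replicates 1 to 4, at 0.46, 2.76, 1.15 and 2.07 times the noise bound. It also limits Cd44 on replicate 6 (2.18 times) and Rpsa on replicate 1 (2.65 times).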
